A study of Mus musculus with 21 samples.

Results

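The S phase and mitosis genes described here are 44 genes listed by symbol. The list was chosen with earlier results of these data known. Of these, 21 act in S phase (Mcm2 to Gmnn) and 23 act in G2 and M phase (Mki67 to Cdca8), out of 47643 genes counted. RNA was measured in myeloid progenitors of C57/B6 mice (young adults by the study's methods, with no treatment given in the labels), and the 21 libraries comprise 7 sorted populations of 3 libraries each. Mononuclear cells of the bone marrow were sorted by flow cytometry into common myeloid progenitors (CMPs) and granulocyte-monocyte progenitors (GMPs). Both lack lineage markers and SCA-1 and carry C-KIT and CD34, and of the pair only GMPs carry CD16/32. Both were also divided by CD62L, an adhesion molecule of leukocytes. CMPs were sequenced as bulk, CD62L-low and CD62L-high cells, and GMPs as bulk, CD62L-neg, CD62L-low and CD62L-high cells. The study refers to the CD62L-low CMPs as CD62L-neg CMPs and to the CD62L-low GMPs as CD62L-int GMPs. Bulk populations contain the fractions, and CMPs of intermediate CD62L, a part of the bulk CMPs, were not analysed here. The CD62L-neg GMPs are the small part of GMPs with the lowest CD62L. The labels do not say whether libraries of a population came from separate mice, so p-values measure only the spread between libraries, which may be technical.

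Genes of these lists rise and fall with every division. E2F factors, held back by RB until cells pass from G1 into S phase, drive genes for licensing and firing of replication origins and for making deoxynucleotides. Genes of G2 and mitosis are switched on later by B-MYB, the MuvB complex and FOXM1, and resting cells keep them off through DREAM, a complex that contains MuvB. Myeloid progenitors divide fast in the marrow, whereas stem cells upstream of them rest most of the time. In bulk RNA, a level averages over cells in all phases, so that fewer cells in a phase and less RNA per cell cannot be told apart.

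All 44 genes were detected in every library, with 13 to 21150 counts per library, and all passed the filter on low counts that left 14801 genes to test. Libraries held 6145834 to 15263573 counts in all. Depth went with population: bulk and CD62L-low CMP libraries held 6145834 to 7509818 counts, and all other libraries 11360760 to 15263573. Contrasts between these groups thus differ in depth as well. After thinning to equal protein-coding counts, 9 members were called between CD62L-high and CD62L-low CMPs (19% of all genes), against 13 (17.2%) without thinning. A pair of libraries stood apart: Gm23935, Gm26917 and Gm42418, gene models rich in ribosomal RNA reads, held 61.0% of the counts in bulk CMP replicate 2 and 41.1% in CD62L-high GMP replicate 1, against 22.4% to 31.7% in the others. Counts of the 44 genes were 44.6 per 10000 protein-coding counts in bulk CMP replicate 2 and 83.7 to 120 in the other 20 libraries. Long members were lower than short ones in both libraries. In CD62L-high GMP replicate 1 the deviation from the other replicates (log2(CPM + 1), where CPM is counts per 1000000 of the library after scaling by TMM) had a median of -0.43 in the 22 longer members and -0.12 in the 22 shorter ones. In bulk CMP replicate 2 the medians were -0.93 and -0.56. The study's methods state that a bulk CMP sample was dropped for poor mapping without naming it, whereas all 3 bulk CMP libraries are kept here, so that bulk CMP values are given with and without replicate 2 where it moves them. Whether RNA quality had a part in the results was not tested, and counts of calls without both libraries follow each comparison. Of the genes behind the sort, Fcgr3, which encodes CD16, was at 6.54 to 15.7 CPM in CMPs and 131 to 190 in GMPs. Kit was at 110 CPM or more in every library, and Cd34, a marker of CMPs and GMPs alike, was lowest in CD62L-low CMPs, at 46.8 to 138 CPM.

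Promoters of both lists were searched for motifs of cell cycle genes, as a description without a test. RefSeq promoter windows (GRCm38.p6, 250 bases before to 50 after the start of the gene, 300 in all) were found for 37 of the 44 genes. Letters were searched on both strands: TTTCGCGC or TTTGGCGC for an E2F site, TTTGAA for a CHR, the element bound by MuvB, and CCAAT for a CCAAT box, bound by NF-Y. A gene was counted once, if any of its windows held the letters. An E2F motif was found for 5 of 17 S phase genes (29.4%: Cdt1, Mcm3, Mcm5, Mcm6 and Mcm7) and 1 of 20 G2 and M genes (5.0%: Cdk1), and for 0.929% of all 27025 genes with a window. A CHR was found for 2 S phase genes (11.8%), 15 G2 and M genes (75.0%) and 20.2% of all genes. CCAAT boxes were found for 10 S phase genes (58.8%), 17 G2 and M genes (85.0%) and 41.1% of all genes. Genes with a CHR and a CCAAT box in the same window made up 11.8% of the S phase genes, 70.0% of the G2 and M genes and 7.97% of all genes. Letters of the E2F motif overlapped on opposite strands in Mcm5 and Mcm6, and 2 CCAAT boxes overlapped in Ube2c. No match in a window says only that these letters are not in it. The part of 5 windows upstream of the annotated gene is printed to set S phase genes (Rrm2, Mcm6) beside G2 and M genes (Cdk1, Ube2c, Cdc20), 5′ to 3′ on the strand of the gene, with motif letters of either strand in capitals. Rrm2 (chr12:24708004-24708240, plus strand) has a lone CCAAT box, and Mcm6 (chr1:128359706-128359955, minus strand) has 3 E2F motifs, of which 2 overlap, and 2 CCAAT boxes. Cdk1 (chr10:69352939-69353162, minus strand) carries 1 E2F motif, 1 CHR and 3 CCAAT boxes, Ube2c (chr2:164769679-164769897, plus strand) 6 CCAAT boxes, and Cdc20 (chr4:118437353-118437593, minus strand) 1 CHR and 1 CCAAT box. Past the printed part, inside the annotated gene and before the RefSeq start, lie a CHR of Ube2c, another CHR of Cdk1 and another CCAAT box of Cdc20. The counts above include them.
Rrm2: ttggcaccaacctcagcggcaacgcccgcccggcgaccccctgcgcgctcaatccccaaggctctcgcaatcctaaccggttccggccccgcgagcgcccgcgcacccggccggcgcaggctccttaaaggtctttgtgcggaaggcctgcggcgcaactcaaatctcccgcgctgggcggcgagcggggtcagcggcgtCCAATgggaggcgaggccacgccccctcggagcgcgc
Mcm6: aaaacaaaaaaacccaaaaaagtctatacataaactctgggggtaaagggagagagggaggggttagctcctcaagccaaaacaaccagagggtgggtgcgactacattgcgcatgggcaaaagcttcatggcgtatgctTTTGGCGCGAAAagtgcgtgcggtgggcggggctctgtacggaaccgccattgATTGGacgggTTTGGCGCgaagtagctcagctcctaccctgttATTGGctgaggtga
Cdk1: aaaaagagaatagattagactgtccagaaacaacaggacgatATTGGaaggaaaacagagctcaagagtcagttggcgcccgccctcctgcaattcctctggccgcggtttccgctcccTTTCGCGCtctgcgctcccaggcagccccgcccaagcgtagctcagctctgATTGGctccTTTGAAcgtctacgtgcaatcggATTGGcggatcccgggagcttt
Ube2c: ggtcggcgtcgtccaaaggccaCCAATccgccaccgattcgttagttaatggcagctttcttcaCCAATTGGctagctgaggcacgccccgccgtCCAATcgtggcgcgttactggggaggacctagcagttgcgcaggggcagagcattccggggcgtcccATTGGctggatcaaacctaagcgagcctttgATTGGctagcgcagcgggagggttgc
Cdc20: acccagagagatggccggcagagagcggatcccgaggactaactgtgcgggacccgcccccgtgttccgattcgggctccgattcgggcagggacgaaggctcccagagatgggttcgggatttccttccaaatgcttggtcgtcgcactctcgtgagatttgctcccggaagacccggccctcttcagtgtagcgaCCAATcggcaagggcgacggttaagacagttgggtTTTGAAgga

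Levels of the S phase genes were on average lowest in bulk and CD62L-low CMPs, overlapped between CD62L-high CMPs and CD62L-neg GMPs, and were higher in the other GMPs, whereas levels of the G2 and M genes were highest in CD62L-high GMPs. An F test over the 7 populations called 31 of the 44 members (13 of S phase, 18 of G2 and M) at an adjusted p under 0.05, a rule that called 39% of all genes tested. Without the libraries that stood apart it called 40 members (18 and 22) and 45.1% of all genes. The smallest adjusted p-values were those of Rrm2 (3.07e-10), Aurkb (1.94e-07), Ccna2 (6.08e-07) and Cdc45 (1.75e-06). The 13 members not called included Top2a (0.0536), Gins2 (0.0563), Cenpf (0.0659) and 4 of the 6 subunits of the MCM helicase, which unwinds DNA at the fork (Mcm2, Mcm4, Mcm6 and Mcm7; 0.235 to 0.705).

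A summary level (mean of log2(CPM + 1) over a list, as the difference from the mean of the 7 populations) describes each library without a test. For the 21 S phase genes it was -0.44 ± 0.47 in bulk CMPs (SD, n = 3, as for the other summary levels; -0.17 ± 0.08 without replicate 2, n = 2), -0.38 ± 0.02 in CD62L-low CMPs and 0.03 ± 0.01 in CD62L-high CMPs. In GMPs it was 0.28 ± 0.02 in bulk, -0.01 ± 0.10 in CD62L-neg, 0.28 ± 0.06 in CD62L-low and 0.23 ± 0.13 in CD62L-high cells (0.31 ± 0.01 without replicate 1). Libraries of CD62L-neg GMPs, at -0.12 to 0.07, lay below all libraries of the other GMPs, and those of CD62L-low CMPs lay below all libraries but bulk CMP replicate 2. The 23 G2 and M genes gave another order. They stood at -0.73 ± 0.47 in bulk CMPs (-0.46 ± 0.02 without replicate 2), -0.20 ± 0.11 in CD62L-low CMPs and 0.24 ± 0.03 in CD62L-high CMPs. Their summary level was 0.10 ± 0.04 in bulk, 0.04 ± 0.01 in CD62L-neg, 0.03 ± 0.07 in CD62L-low and 0.51 ± 0.16 in CD62L-high GMPs (0.60 ± 0.01 without replicate 1). CD62L-high GMPs were above every other library, and bulk CMPs were below every other library.

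**Figure D1:**
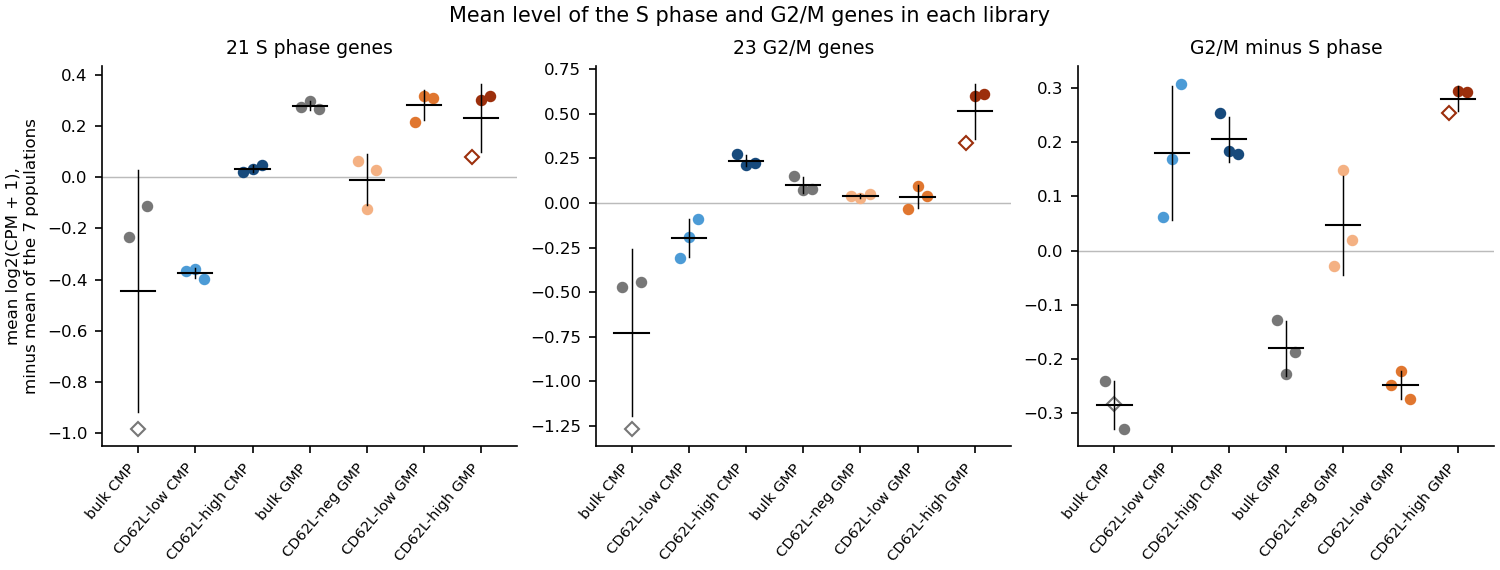
Mean level of the 21 S phase genes (left), of the 23 G2/M genes (middle) and their difference (right) in each library, on the scale of log2(CPM + 1) minus the mean of the 7 populations; points are libraries, horizontal lines means, vertical lines SD, and open diamonds mark bulk CMP replicate 2 and CD62L-high GMP replicate 1. G2/M levels of CD62L-high GMPs (0.34 to 0.61) sit above all others. The mean difference is highest there and lowest in bulk CMPs, but single libraries overlap those of CD62L-low CMPs and CD62L-low GMPs, respectively.

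The balance of the lists (G2 and M level minus S phase level) was 0.28 ± 0.02 in CD62L-high GMPs, 0.21 ± 0.04 in CD62L-high CMPs, 0.18 ± 0.12 in CD62L-low CMPs, 0.05 ± 0.09 in CD62L-neg GMPs, -0.18 ± 0.05 in bulk GMPs, -0.25 ± 0.03 in CD62L-low GMPs and -0.28 ± 0.04 in bulk CMPs. Bulk CMPs thus had a lower balance than either CMP fraction, with libraries at -0.33 to -0.24 against 0.06 to 0.31. In bulk CMP replicate 2 the balance was -0.28, between those of replicates 1 and 3, although both of its lists were low. CD62L-high GMP replicate 1, at 0.25, was also near its replicates (0.29 and 0.30).

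Among single genes, 12 of the 21 S phase genes had their lowest mean in bulk CMPs and the other 9 in CD62L-low CMPs. This count rests on bulk CMP replicate 2: without the libraries that stood apart bulk CMPs were lowest for 1 S phase gene (Tyms), CD62L-low CMPs for 17, CD62L-neg GMPs for 2 and CD62L-high CMPs for 1. With all libraries, the highest mean of the S phase genes was in CD62L-low GMPs for 9, bulk GMPs for 6, CD62L-high GMPs for 5 and CD62L-low CMPs for 1 (Chaf1b, a subunit of the histone chaperone CAF-1). The G2 and M genes had their lowest mean in bulk CMPs in 21 of 23 cases and in CD62L-low CMPs in the other 2, and their highest mean in CD62L-high GMPs in 19 cases, in CD62L-high CMPs in 3 and in CD62L-neg GMPs in 1 (Kif20b, a kinesin of cytokinesis). Without the libraries that stood apart, bulk CMPs were lowest for 19 and CD62L-high GMPs highest for 21 of these 23 genes. The ratio of the highest to the lowest mean had a median of 1.61 over the S phase genes (range 1.19 to 3.69) and 2.38 over the G2 and M genes (range 1.68 to 3.71). These ratios use all libraries, those that stood apart included. For Mki67 the bulk CMP mean was 518 CPM with and 688 CPM without replicate 2. Its CD62L-high GMP mean was 1232 CPM with and 1411 CPM without replicate 1. Per kilobase of exon, levels averaged over populations were highest for Mcm6 (113 CPM per kb), followed by Mcm3 and Mki67 (90.8), and lowest for Ccne2 (6.02), Ung (5.52) and Ccne1 (5.204).

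**Figure D2:**
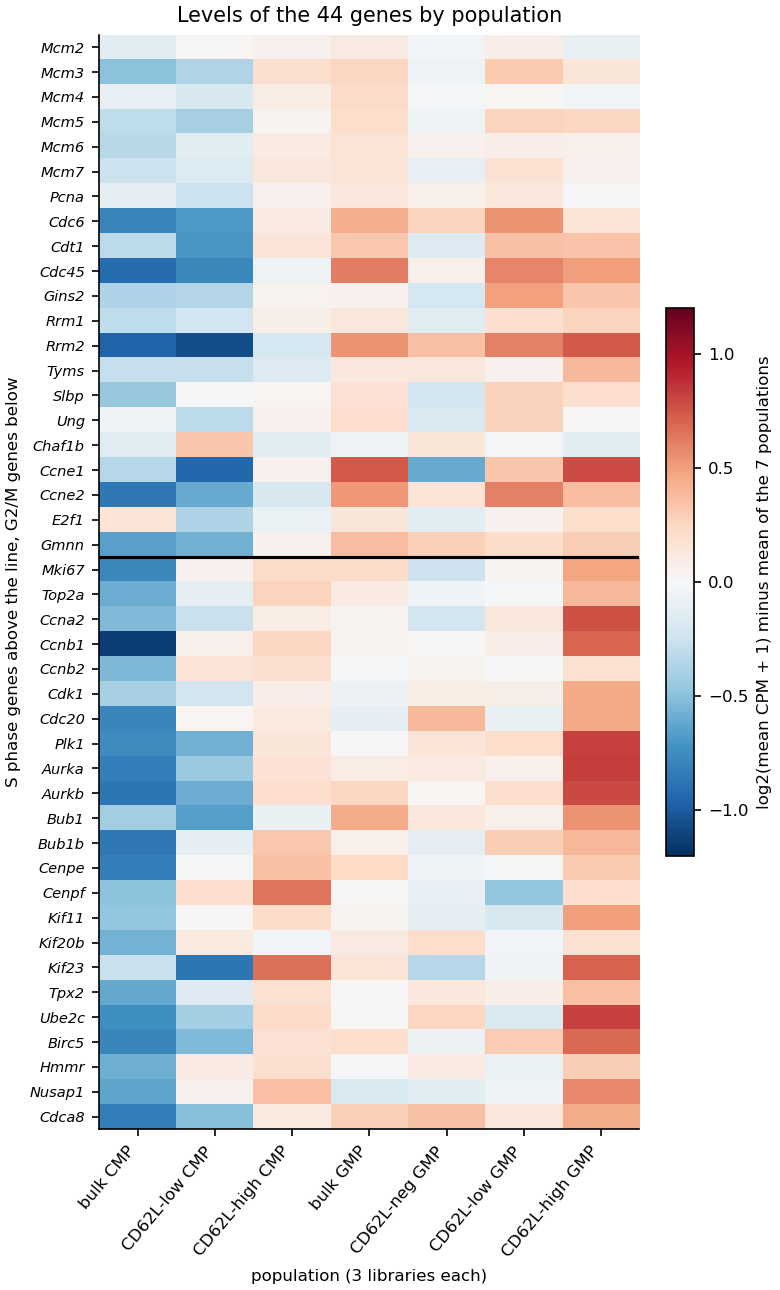
Levels of the 44 genes (S phase above the line, G2/M below) in the 7 populations, as log2(mean CPM + 1) minus the mean of the 7 populations; red is higher and blue lower. Bulk CMPs are lowest for 21 G2/M genes, and CD62L-high GMPs highest for 19; bulk CMPs are lowest for 12 S phase genes, but for 1 without the libraries that stood apart.

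Rrm2 encodes the subunit of ribonucleotide reductase whose supply limits the making of deoxynucleotides in S phase. In CMPs it was at 52.4, 33.5 and 45.4 CPM in bulk, 46.5, 39.7 and 36.2 in CD62L-low, and 71.0, 73.7 and 79.0 in CD62L-high cells. In GMPs it was at 131, 131 and 116 CPM in bulk, 105, 111 and 114 in CD62L-neg, 121, 141 and 132 in CD62L-low, and 144, 151 and 139 in CD62L-high cells. Every GMP library exceeded every CMP library, and CD62L-high CMPs lay between the other CMPs and the GMPs with no overlap, whereas bulk, CD62L-low and CD62L-high GMPs overlapped in a chain. Cdc45, a part of the active helicase, had 28.5, 12.3 and 28.3 CPM in bulk CMPs, 24.3, 31.0 and 21.4 in CD62L-low CMPs and 44.3, 42.5 and 41.6 in CD62L-high CMPs. Its values were 61.4, 73.0 and 72.3 in bulk GMPs, 50.5, 39.8 and 49.2 in CD62L-neg GMPs, 61.7, 69.2 and 70.9 in CD62L-low GMPs and 58.9, 61.6 and 69.4 in CD62L-high GMPs. CD62L-neg GMPs overlapped CD62L-high CMPs and lay below the other 3 GMP populations, which overlapped each other.

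Cdc6 and Cdt1 load the MCM helicase onto origins in G1. Cdc6 was at 31.0, 21.2 and 26.6 CPM in bulk CMPs, 33.4, 27.6 and 23.9 in CD62L-low CMPs and 54.1, 50.4 and 44.2 in CD62L-high CMPs. The GMP values of Cdc6 were 66.0, 60.5 and 62.4 in bulk, 54.8, 44.4 and 68.2 in CD62L-neg, 59.0, 78.3 and 66.2 in CD62L-low and 41.7, 57.8 and 55.6 in CD62L-high cells. From CD62L-high CMPs upwards, each population overlapped the next in order. Cdt1 was at 62.7, 102 and 68.6 CPM in bulk CMPs, 58.7, 56.1 and 63.3 in CD62L-low CMPs and 102, 103 and 119 in CD62L-high CMPs. It had 129, 120 and 117 CPM in bulk GMPs, 94.5, 78.7 and 88.8 in CD62L-neg GMPs, 109, 131 and 132 in CD62L-low GMPs and 128, 113 and 129 in CD62L-high GMPs. CD62L-neg GMPs lay below all CD62L-high CMP libraries for Cdt1, and bulk CMP replicate 2 was the highest bulk CMP library for this gene alone among these 4.

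The 4 G2 and M genes given in full all peaked in CD62L-high GMPs. Aurkb, the kinase of the chromosomal passenger complex that corrects attachments of chromosomes to the spindle, was at 33.1, 29.6 and 28.6 CPM in bulk CMPs, 30.9, 33.7 and 46.9 in CD62L-low CMPs and 65.0, 63.1 and 67.2 in CD62L-high CMPs. In GMPs it was at 60.9, 71.3 and 69.1 CPM in bulk, 64.4, 47.9 and 59.9 in CD62L-neg, 58.8, 60.0 and 76.5 in CD62L-low and 106, 97.2 and 93.3 in CD62L-high cells. CD62L-high CMPs overlapped the first 3 of these GMP populations, and CD62L-high GMPs overlapped none. Birc5 (survivin, of the same complex) had 25.7, 23.6 and 24.3 CPM in bulk CMPs, 26.3, 36.6 and 25.4 in CD62L-low CMPs and 54.5, 42.4 and 48.5 in CD62L-high CMPs. Its GMP values were 49.3, 50.8 and 49.4 in bulk, 38.8, 51.2 and 32.1 in CD62L-neg, 46.8, 56.2 and 56.3 in CD62L-low and 60.4, 74.6 and 74.7 in CD62L-high cells. Only CD62L-high GMPs stood clear of their neighbour in the order of these means.

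Ccna2 (cyclin A2, which pairs with kinases of S phase and mitosis) was at 74.1, 72.9 and 65.3 CPM in bulk CMPs, 77.0, 89.1 and 89.2 in CD62L-low CMPs and 115, 98.3 and 114 in CD62L-high CMPs. It reached 107, 105 and 103 CPM in bulk GMPs, 85.0, 84.8 and 91.3 in CD62L-neg GMPs, 104, 111 and 121 in CD62L-low GMPs and 207, 156 and 160 in CD62L-high GMPs. CD62L-high GMP replicate 1 was the highest library for this gene, and CD62L-high GMPs overlapped no other population. Ccnb1 (cyclin B1, which activates Cdk1 at entry into mitosis) was at 16.4, 16.4 and 12.0 CPM in bulk CMPs, 27.6, 33.6 and 44.6 in CD62L-low CMPs and 35.1, 40.4 and 45.8 in CD62L-high CMPs. Its GMP values were 34.8, 37.7 and 31.3 in bulk, 39.1, 34.3 and 28.8 in CD62L-neg, 34.8, 31.8 and 41.0 in CD62L-low and 52.4, 62.4 and 51.1 in CD62L-high cells. Bulk CMPs were below all other libraries and CD62L-high GMPs above all, while the 5 populations between them overlapped in a chain.

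**Figure D3:**
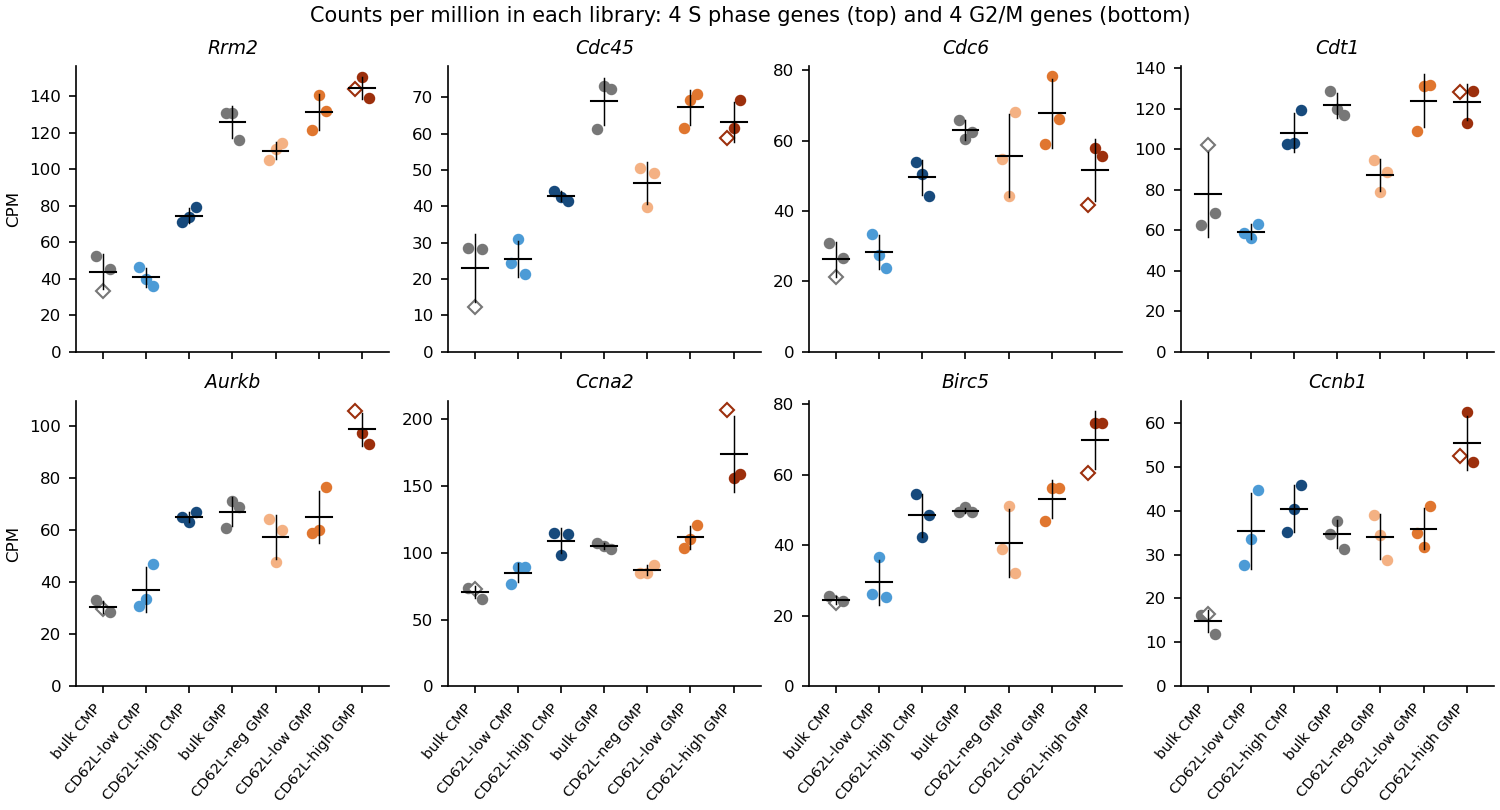
CPM of Rrm2, Cdc45, Cdc6 and Cdt1 (top) and Aurkb, Ccna2, Birc5 and Ccnb1 (bottom) in each library of the 7 populations; points are libraries, horizontal lines means, vertical lines SD, and open diamonds mark the 2 libraries that stood apart. All GMP libraries exceed all CMP libraries for Rrm2, and CD62L-high GMPs (51.1 to 62.4 CPM) exceed all others for Ccnb1.

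The usual markers of proliferation moved less or were less certain. Mcm2 had population means of 270 to 320 CPM (adjusted p = 0.705 over the 7 populations), and Pcna, the sliding clamp of DNA polymerase, 138 to 182 CPM (0.277). Mki67, the gene of the Ki-67 antigen, was at 672, 179 and 705 CPM in bulk CMPs and 875, 1406 and 1416 CPM in CD62L-high GMPs, with other population means of 744 to 1041 (adjusted p = 0.0332, and 7.66e-08 without the libraries that stood apart). Top2a, which untangles sister DNA, had 456, 142 and 432 CPM in bulk CMPs, 530, 780 and 752 in CD62L-high GMPs and means of 480 to 628 elsewhere (0.0536, and 4.94e-07 without them). For both genes the low value of each triplet came from a library that stood apart.

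Between CD62L-high and CD62L-low CMPs, 5 S phase and 8 G2 and M genes were higher in CD62L-high cells and 0 were lower, out of 44, while 9.94% of all genes tested were higher and 7.27% lower. The median log2 fold change was 0.38 over the S phase and 0.37 over the G2 and M genes, against 0.01 over all genes. Of the S phase genes, Ccne1 (cyclin E1, which starts S phase) rose by 1.11 ± 0.38 on the log2 scale (SE; adjusted p = 0.0478), Rrm2 by 0.87 ± 0.15 (1.01e-04), Cdt1 by 0.87 ± 0.16 (2.35e-04), Cdc6 by 0.81 ± 0.19 (0.00289) and Cdc45 by 0.74 ± 0.21 (0.0136). The strongest G2 and M gene was Kif23, a motor of the central spindle needed for cytokinesis. It was at 48.4, 30.1 and 41.0 CPM in CD62L-low and 119, 122 and 109 CPM in CD62L-high CMPs, a rise of 1.55 ± 0.28 (2.45e-04). Aurkb rose by 0.81 ± 0.16 (7.22e-04), Plk1, a kinase of mitotic entry and exit, by 0.75 ± 0.20 (0.00905) and Birc5 by 0.72 ± 0.18 (0.00511), and Ube2c, Aurka, Cdca8 and Bub1 were called too. Of the 13 called genes, Ccne1 and Kif23 changed by more than 2-fold. Without bulk CMP replicate 2 alone 22 members were called (21% of all genes), and without CD62L-low CMP replicate 1 or 3 or CD62L-high CMP replicate 1 only 8 (12.1% to 14.1%). With both libraries that stood apart left out, 27 members were called (26 higher; 24.8% of all genes called in either direction), among them Top2a (0.36, adjusted p = 0.00107). The gene that was lower in this fit was Chaf1b (-0.51, 0.0107), at 46.3, 39.96 and 44.6 CPM in CD62L-low and 31.5, 29.0 and 33.3 CPM in CD62L-high CMPs. Markers of other lineages moved with this contrast: of 14 erythroid genes tested 11 were lower in CD62L-high CMPs (summed level 99.8 to 112 against 569 to 616 CPM; Epor was at 0 in all 3 CD62L-high libraries), of 10 megakaryocyte genes 9 were lower (34.1 to 37.1 against 751 to 897 CPM) and of 10 monocyte genes 9 were higher (1913 to 2380 against 47.3 to 87.9 CPM). Of 14 stem and multipotent progenitor genes 8 were lower and 2 higher in CD62L-high CMPs (summed level 492 to 644 against 1694 to 1820 CPM). Of 9 basophil, mast cell and eosinophil genes 5 were lower and 1 higher, and of 15 neutrophil genes 7 were higher and 0 lower. The part of these markers in the result was not tested.

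The GMP fractions were compared in steps of CD62L. Between CD62L-low and CD62L-neg GMPs edgeR called 0 members, against 2.92% of all genes higher and 3.47% lower in CD62L-low cells. DESeq2 called 2, both higher (8.53% of all genes in either direction). At an unadjusted p under 0.05, 6 S phase genes (Cdt1, Cdc45, Gins2, Rrm1, Ung and Ccne1) and 2 G2 and M genes (Ccna2, Birc5) were higher (7.35% of all genes), and 2 G2 and M genes (Cdc20, Ube2c) were lower (9.07% of all genes). The median log2 fold change was 0.28 over the S phase genes and -0.02 over the G2 and M genes. For 13 of 21 S phase and 2 of 23 G2 and M genes all 3 CD62L-low libraries lay above all 3 CD62L-neg libraries, which held for 12% of all genes. Cdt1 came closest to the threshold, with 0.51 ± 0.15 (adjusted p = 0.051). In the fit that left out both libraries that stood apart, neither of which belongs to these populations, 14 members were called (10.8% of all genes): 10 S phase genes, all higher, with Gins2 (0.72, 0.00255), Slbp (0.50, 0.00106) and Cdt1 (0.50, 0.0016) among them, Ccna2, which was higher, and Cdc20, Cenpf and Ube2c, which were lower. Without bulk CMP replicate 2 alone 8 members were called (8.26% of all genes), and without any other single library 0 to 2. In CD62L-low GMPs all 9 basophil, mast cell and eosinophil genes were lower (33.2 to 38.5 against 2112 to 3220 CPM summed), as were 5 of 14 erythroid, 5 of 10 megakaryocyte and 4 of 14 stem genes, and 8 of 10 monocyte genes were higher (2284 to 2432 against 310 to 341 CPM). Their part was not tested. Exons of Gins2 lie antisense to Gse1 over 67.3% of their length, and those of Ube2c to Tnnc2 over 22.8%, and without a stated strand setting reads of such pairs cannot be told apart.

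From CD62L-low to CD62L-high GMPs the calls fell on the G2 and M list. Here 5 G2 and M genes were higher in CD62L-high cells and 0 S phase genes were called, with 0.858% of all genes higher and 1.17% lower. All 23 G2 and M genes had a positive log2 fold change (median 0.49), and 6 of 21 S phase genes did (median -0.07). Ube2c, the ubiquitin-conjugating enzyme of the anaphase-promoting complex, was at 30.9, 30.2 and 27.2 CPM in CD62L-low and 80.0, 49.98 and 49.4 CPM in CD62L-high GMPs, a rise of 1.02 ± 0.20 (adjusted p = 0.00595). Aurka, the kinase of spindle poles, rose by 0.79 ± 0.20 (0.0383), Kif11, the motor that separates the poles, by 0.70 ± 0.15 (0.0147), Ccna2 by 0.64 ± 0.13 (0.0095) and Aurkb by 0.60 ± 0.16 (0.048). Without CD62L-high GMP replicate 1 or CD62L-low GMP replicate 1 alone 1 member was called (0.954% and 0.645% of all genes), without bulk CMP replicate 2 alone 11 (4.13%), and without both libraries that stood apart 15 were, all of G2 and M and all higher (2.98% of all genes). In that fit Mki67 (0.64, 3.25e-04) and Top2a (0.57, 2.16e-04) were among them. Monocyte genes summed to 3801 to 4347 CPM in CD62L-high against 2284 to 2432 CPM in CD62L-low GMPs, with 4 of 10 called higher, and neutrophil genes to 19750 to 25770 against 22740 to 25560 CPM. None of the monocyte genes was at 0 in either. Lower in CD62L-high GMPs were 3 of 15 neutrophil, 4 of 9 basophil, mast cell and eosinophil, 3 of 14 stem and 1 of 10 megakaryocyte genes. Of these lists 0 genes were called higher. The part of all these markers in the result was not tested.

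CD62L-high GMPs exceeded CD62L-neg GMPs in both lists: 3 S phase and 10 G2 and M genes were higher and 0 lower (8.28% and 8.65% of all genes), with medians of 0.22 and 0.50 against -0.04 over all genes. This contrast shares its libraries with the previous ones. Ccne1, at 9.25, 6.21 and 8.33 CPM in CD62L-neg and 28.7, 24.2 and 14.5 CPM in CD62L-high GMPs, rose by 1.497 ± 0.37 (adjusted p = 0.00552), Cdt1 by 0.50 ± 0.15 (0.0269) and Rrm1, the large subunit of ribonucleotide reductase, by 0.42 ± 0.13 (0.0296). Kif23 rose by 1.07 ± 0.27 (0.00763), Ccna2 by 1.001 ± 0.13 (5.5e-06), Aurkb by 0.78 ± 0.16 (9.51e-04) and Birc5 by 0.78 ± 0.17 (0.00225). Without bulk CMP replicate 2 alone 23 members were called (21.2% of all genes), and without CD62L-neg GMP replicate 2 or 3 only 8 (12.4% and 12.7%). Without both libraries that stood apart 24 were called, all higher (18.7% of all genes), Mki67 (0.92, 7.58e-08) and Top2a (0.60, 7.35e-06) included. All 9 basophil, mast cell and eosinophil genes were lower in CD62L-high GMPs, with summed levels of 7.68 to 11.2 against 2112 to 3220 CPM and with Cpa3, Fcer1a and Il5ra at 0 in all 3 CD62L-high libraries. Of 10 monocyte genes 9 were higher (3801 to 4347 against 310 to 341 CPM). Whether these cells account for any of the difference was not tested.

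Against bulk GMPs, CD62L-neg GMPs had 1 member called. Ccne1 was at 22.5, 22.5 and 19.9 CPM in bulk GMPs and fell by 1.45 ± 0.37 (0.0163), where 2.91% of all genes were higher and 3.42% lower. Of the 21 S phase genes, 19 had a negative log2 fold change (median -0.27), as had 12 of 23 G2 and M genes (median -0.02). With both libraries that stood apart left out, 9 members were called (11.3% of all genes), of which 6 S phase genes were lower. Of the markers, 8 of 10 monocyte genes were lower in CD62L-neg GMPs. Higher there were 7 of 9 basophil, mast cell and eosinophil, 6 of 14 erythroid and 5 of 10 megakaryocyte genes. Of 14 stem genes 5 were higher and 1 lower, and of 15 neutrophil genes 4 were higher and 1 lower. The part of these markers was not tested.

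**Figure D4:**
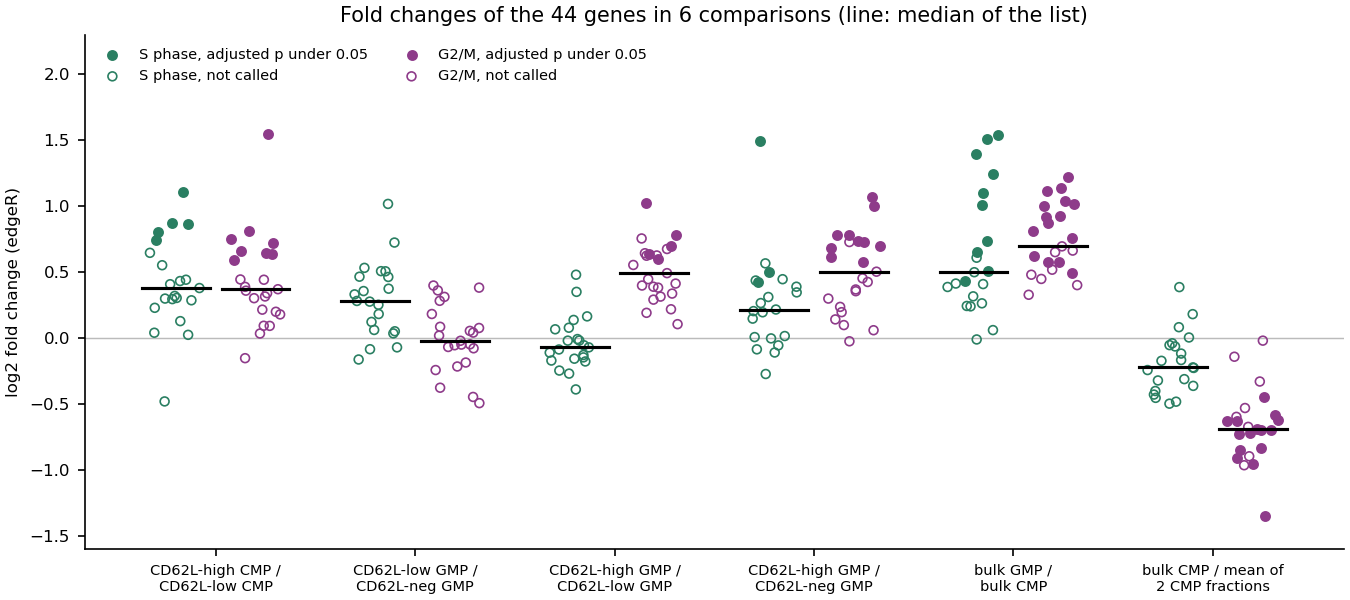
Log2 fold changes from edgeR of the 21 S phase (green) and 23 G2/M genes (purple) in 6 comparisons; filled points have an adjusted p under 0.05, open points do not, and lines are medians. The S phase median is above 0 and the G2/M median near 0 from CD62L-neg to CD62L-low GMPs (0.28 and -0.02), and the reverse holds from CD62L-low to CD62L-high GMPs (-0.07 and 0.49).

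Bulk GMPs were above bulk CMPs in both lists. Of the members 25 were higher (10 of S phase, 15 of G2 and M) and 0 lower, against 9.72% and 10.9% of all genes, and medians were 0.50 and 0.70. Cdc45 rose by 1.54 ± 0.21 (adjusted p = 1.18e-05), Rrm2 by 1.51 ± 0.15 (1.13e-07), Ccne2, the other cyclin E, by 1.39 ± 0.29 (0.00125) and Cdc6 by 1.25 ± 0.19 (4.2e-05). Ccnb1 rose by 1.22 ± 0.20 (9.57e-05), Aurkb by 1.14 ± 0.17 (2.46e-05), Cdca8 (borealin, also of the passenger complex) by 1.11 ± 0.19 (2.1e-04), Cenpe, a kinetochore motor, by 1.04 ± 0.33 (0.0281) and Mki67 by 0.998 ± 0.29 (0.0178). Without the libraries that stood apart Cenpe was at 0.63 and Mki67 at 0.58. Without bulk CMP replicate 2 the medians were 0.27 and 0.59 with 18 members called, and without both libraries that stood apart 24 were called, all higher (20.2% of all genes). Stem and multipotent progenitor genes summed to 1199 to 1513 CPM in bulk CMPs and 188 to 205 CPM in bulk GMPs, with 13 of 14 lower in GMPs and Ly6a at 0 in all 3 GMP libraries. Their part was not tested.

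GMPs were also compared with CMPs at the same end of the CD62L range. The study trisected CMPs by CD62L but took only small extreme parts of GMPs, so these pairs are not matched for CD62L level. From CD62L-low CMPs to CD62L-neg GMPs 7 S phase and 6 G2 and M genes were higher and 0 lower (11.7% and 9.77% of all genes), with medians of 0.30 and 0.09. Rrm2 rose by 1.43 ± 0.15 (1.03e-07), Cdc6 by 0.98 ± 0.19 (3.85e-04), Gmnn (geminin, the inhibitor of Cdt1) by 0.89 ± 0.26 (0.0148) and Cdc45 by 0.86 ± 0.21 (0.00368). Cdca8 rose by 0.88 ± 0.19 (0.00148), Bub1, a kinase of the spindle checkpoint, by 0.82 ± 0.20 (0.00341), Plk1 by 0.76 ± 0.20 (0.00691) and Ube2c by 0.69 ± 0.20 (0.0149). In the fit that left out both libraries that stood apart, 21 were called (29.3% of all genes), 19 of them higher, and Mki67 was lower in CD62L-neg GMPs (-0.31, 0.0123). Of the markers, 11 of 14 erythroid, 9 of 10 megakaryocyte and 11 of 14 stem genes were lower in CD62L-neg GMPs, and 11 of 15 neutrophil and 8 of 9 basophil, mast cell and eosinophil genes were higher. Between CD62L-high CMPs and CD62L-high GMPs 9 members were higher in GMPs and 0 lower (5.7% and 6.82% of all genes). Rrm2 rose by 0.95 ± 0.14 (5e-05), Tyms, which makes thymidylate, by 0.56 ± 0.15 (0.0134), Plk1 by 0.69 ± 0.19 (0.0174), Ccna2 by 0.67 ± 0.13 (9.68e-04), Aurka by 0.67 ± 0.20 (0.0261) and Bub1 by 0.65 ± 0.19 (0.0241). Leaving out CD62L-high GMP replicate 1 or 3 left 5 calls (8.43% and 9.82% of all genes), leaving out a CD62L-high CMP library left 2 to 4 (8.16% to 8.94%), and leaving out both libraries gave 18, all higher (13.9% of all genes). Here 11 of 14 stem, 5 of 14 erythroid and 4 of 10 megakaryocyte genes were lower in GMPs, and 8 of 15 neutrophil and 4 of 10 monocyte genes were higher. The part of these markers in either contrast was not tested.

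Between CD62L-neg GMPs and CD62L-high CMPs 2 members were called, with 6.56% of all genes higher and 7.09% lower in CD62L-neg GMPs. Rrm2 was higher by 0.56 ± 0.14 (adjusted p = 0.00805) and Kif23 fell by 1.02 ± 0.27 (0.0125), at 50.2, 62.5 and 60.2 CPM in CD62L-neg GMPs. Without both libraries that stood apart 10 were called (19.9% of all genes): Rrm2 higher and 9 G2 and M genes lower, with Mki67 (-0.47, 4.3e-04) and Top2a (-0.31, 0.00654) among the latter. All 9 basophil, mast cell and eosinophil genes, 11 of 15 neutrophil and 5 of 14 erythroid genes were higher in CD62L-neg GMPs and 8 of 10 monocyte genes lower, and their part was not tested.

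Bulk CMPs had a lower mean than both CMP fractions for 21 of 23 G2 and M genes, all but Bub1 and Kif23, and for 20 without the libraries that stood apart. Against the mean of CD62L-low and CD62L-high CMPs, weighted equally, 15 G2 and M genes were lower, 0 were higher and 0 S phase genes were called, where 3.69% of all genes were higher and 1.06% lower. All 23 G2 and M genes had a negative log2 fold change (median -0.69), and 17 of 21 S phase genes did (median -0.22). Ccnb1 fell by 1.35 ± 0.18 (adjusted p = 7.26e-05), Bub1b, of the spindle checkpoint, by 0.96 ± 0.22 (0.0125), Mki67 by 0.91 ± 0.26 (0.0475) and Nusap1, which bundles spindle microtubules, by 0.85 ± 0.17 (0.00307). Mki67 was at -0.52 (0.00125) without the libraries that stood apart. Without bulk CMP replicate 2 the medians were -0.51 and -0.01, and 5 members were called. With both libraries that stood apart left out, 15 were again called, all lower and of G2 and M (3.88% of all genes), of which 12 were the same genes, and the medians were -0.52 and -0.02. A fit of these 3 populations alone called 2. Markers moved with this contrast as well: 7 of 10 monocyte, 3 of 15 neutrophil, 3 of 14 erythroid, 3 of 9 basophil, mast cell and eosinophil, 2 of 14 stem and 2 of 10 megakaryocyte genes were higher in bulk CMPs, as were 2 of the 3 ribosomal RNA gene models, and 0 of these were lower. Their part was not tested. The CMPs of intermediate CD62L in the bulk sort were not analysed here.

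The CD62L difference itself differed between GMPs and CMPs for 2 members. CD62L was gated differently in CMPs and GMPs, so the differences compared need not span a like range of CD62L. Among all genes the difference (CD62L-high minus CD62L-neg in GMPs, less CD62L-high minus CD62L-low in CMPs) was higher for 2.3% and lower for 5.05%. For Cdc6 it was -0.92 ± 0.26 (adjusted p = 0.0298): Cdc6 rose with CD62L in CMPs, and in GMPs its CD62L-neg values of 44.4 to 68.2 CPM overlapped its CD62L-high values of 41.7 to 57.8 CPM. For Ccna2 it was 0.64 ± 0.19 (0.036), with a log2 fold change of 1.001 in GMPs and 0.36 in CMPs. Leaving out 1 library left 0 to 2 calls by edgeR, with 0 without CD62L-high GMP replicate 1 and without any of 6 other libraries of the fractions compared. Without both libraries that stood apart 5 members were called (Cdc6, Slbp, Mki67, Ccna2 and Kif11), a share not above the 11.8% of all genes. In that fit Mki67 differed by 0.76 (3.08e-04).

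Other genes of the cycle were taken from lists that hold none of the 44. Of 21 genes of spindle motors, midzone and cytokinesis 5 were higher and 1 lower in CD62L-high than in CD62L-low CMPs (Ect2 1.09 ± 0.16), 7 were higher in CD62L-high than in CD62L-neg GMPs (Racgap1 1.06 ± 0.17), 13 were higher in bulk GMPs than in bulk CMPs (Kif2c 1.37 ± 0.38) and 11 were lower in bulk CMPs than in the CMP fractions (Kif2c -1.35 ± 0.35). Of 27 genes of the replication fork and nucleotide supply 6 were higher in CD62L-high than in CD62L-low CMPs and 11 in bulk GMPs than in bulk CMPs, and 0 were called by edgeR in bulk CMPs against the fractions. From CD62L-neg to CD62L-low GMPs 1 of the 27 was called, Tk1, which salvages thymidine. Tk1 was at 34.0, 31.4 and 22.3 CPM in CD62L-neg, 50.8, 69.3 and 61.2 CPM in CD62L-low and 74.2, 77.3 and 72.7 CPM in CD62L-high GMPs, a rise of 1.05 ± 0.19 at the first step (adjusted p = 6.75e-04). Of 18 genes of condensin, cohesin release and mitotic entry 6 were higher in CD62L-high than in CD62L-neg GMPs (Pkmyt1 0.85 ± 0.24) and 5 were lower in bulk CMPs than in the fractions (Cdc25b -0.90 ± 0.25). Of 15 kinetochore genes 3 were lower in bulk CMPs (Nuf2 -0.91 ± 0.18), and of 15 origin genes 3 were higher in bulk GMPs than in bulk CMPs (Gins1 1.12 ± 0.31). From CD62L-low to CD62L-high GMPs 3 of the 21 spindle genes were higher. At that step 0 of the replication fork, condensin, kinetochore and origin genes were called. In CD62L-high against CD62L-low CMPs, and in CD62L-high against CD62L-neg GMPs, 1 of 15 kinetochore and 1 of 15 origin genes was called. Shares of all genes called are those given above for each contrast.

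Regulators upstream of these lists are shown as 8 genes, some of them chosen after their values were seen. Foxm1, the activator of G2 and M genes, was at 45.0, 52.3 and 51.4 CPM in CD62L-neg, 53.8, 65.1 and 70.8 CPM in CD62L-low and 135, 99.1 and 98.5 CPM in CD62L-high GMPs. All CD62L-high libraries were above all others of the series, with a rise of 0.81 ± 0.18 over CD62L-low GMPs (adjusted p = 0.0147). Mybl2, which encodes B-MYB, was higher in bulk GMPs than in bulk CMPs (0.88 ± 0.18, 0.0013), and at 58.2 to 82.6 CPM in CD62L-neg GMPs it overlapped the other GMP fractions. E2f2 rose from CD62L-neg to CD62L-high GMPs by 2.10 ± 0.32 (3.07e-05). Ccnd1 (cyclin D1) was at 39.5, 48.6 and 41.0 CPM in CD62L-high CMPs and 3.44, 1.96 and 0.88 CPM in CD62L-neg GMPs, and it fell by 4.35 ± 0.32 (7.66e-10). Cdkn1a, the inhibitor p21, was at 66.7, 78.0 and 60.5 CPM in bulk CMPs and 14.1 to 36.9 CPM in the CMP fractions, higher by 1.57 ± 0.17 (6.63e-06). Cdkn1b (p27) was at 78.0 to 100 CPM in bulk CMPs and 67.1 to 72.4 CPM in the fractions. CDK inhibitors did not all move the same way: of 5 tested in this contrast 1 was called higher and 1 lower, with a lowest log2 fold change of -0.69. Cdkn2c, the CDK4 and CDK6 inhibitor p18, was highest where the G2 and M genes were highest, at 31.4, 28.7 and 31.5 CPM in CD62L-high GMPs against 10.6, 14.1 and 17.3 CPM in CD62L-low GMPs (1.12 ± 0.20, 0.0029).

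**Figure D5:**
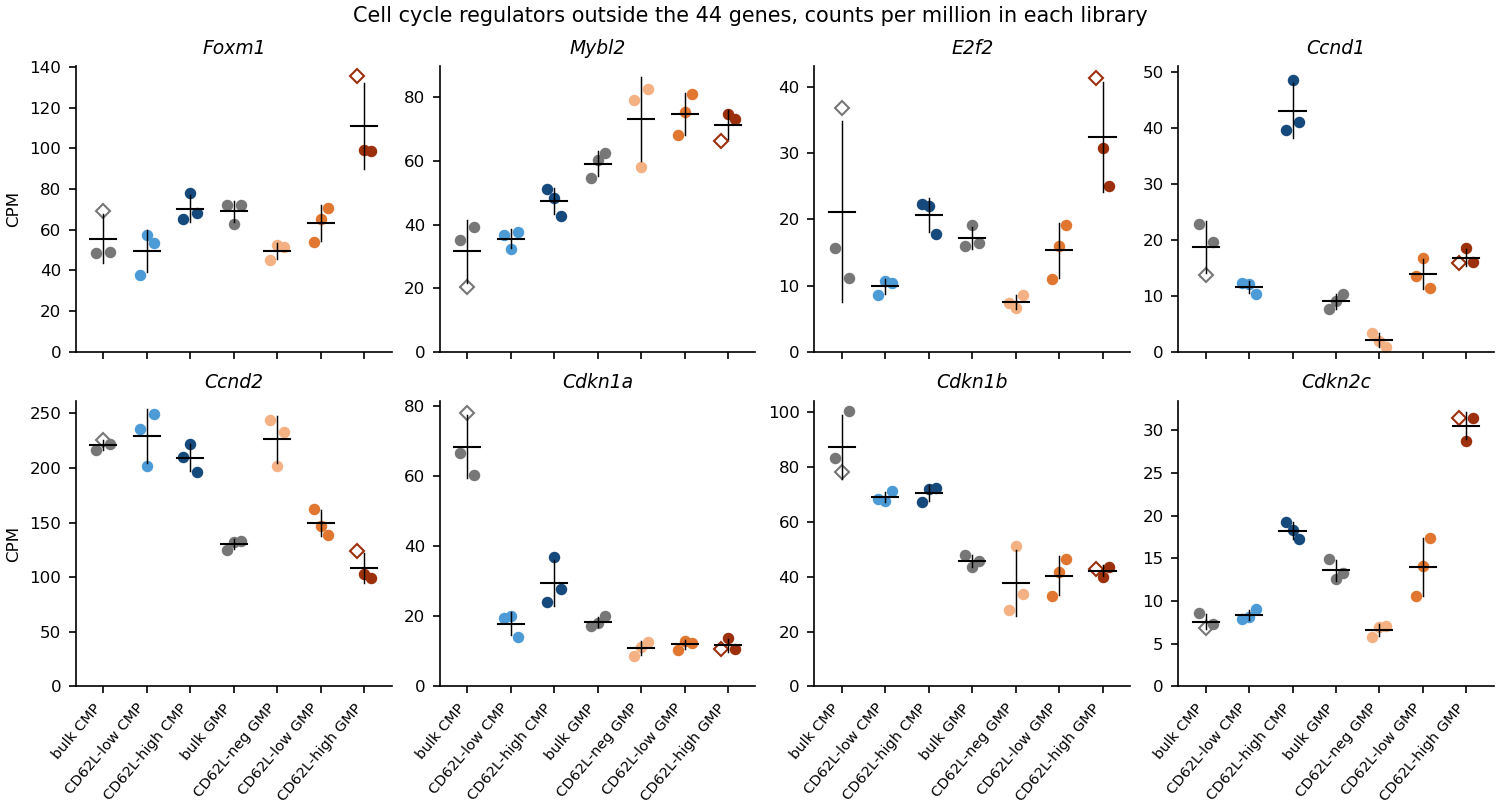
CPM of 8 regulators outside the 44 genes in each library of the 7 populations; points are libraries, horizontal lines means, vertical lines SD, and open diamonds mark the 2 libraries that stood apart. Cdkn1a is highest in bulk CMPs (60.5 to 78.0 CPM), and Foxm1 (98.5 to 135 CPM) and Cdkn2c are highest in CD62L-high GMPs.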

How the data were processed

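Per the labels and the study's methods, the authors sequenced 21 SMARTer libraries, used Trim Galore for trimming, HISAT2 for alignment (mm10) and HTSeq for counting per gene, and the deposited values are raw counts without normalization. Labels name a stranded kit and the methods another kit. The methods also state that a bulk CMP sample was dropped for poor mapping, without naming it, and all 3 were kept here. Versions and the strand setting are not given in the sources used here. Of 47643 gene identifiers 47224 (99.12%) matched a symbol.

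Counts were scaled by TMM and tested with edgeR 4.0.16 (R 4.3.3), using filterByExpr over the 7 populations, 1 quasi-likelihood fit of all 21 libraries and Benjamini-Hochberg adjustment over 14801 genes for each of 12 comparisons. Genes with an adjusted p under 0.05 were called, whatever their fold. Levels are counts per 1000000 of the library (CPM), with a pseudocount of 1 on the log2 scale. Depth was 6145834 to 15263573 counts, and the lowest median count of a member over libraries was 185. The fit was tested on simulated data. No replicate pair agreed within sampling noise. Members and lists were chosen with earlier results of these data known. Values in every library were given for the 4 genes of each list with the smallest p over the 7 populations. For each comparison up to 4 called genes per list and direction with the largest fold change were named, together with Mcm2, Pcna, Mki67 and Top2a and the called gene of largest change in each other list. Further genes were named after their values were seen. Alternatives covered scaling, filtering, DESeq2 1.42.0, populations in the fit, a replicate block, the fold threshold and leaving out libraries. Leaving out both libraries that stood apart, and thinning to 1888499 protein-coding counts, were chosen after seeing the data.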

Additional observations from a re-analysis of the deposited data

Results flagged for a closer look

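The effect of CD62L (CD62L-high against CD62L-neg in GMPs, less CD62L-high against CD62L-low in CMPs) differed between GMPs and CMPs for 2 of the 44 genes by edgeR's interaction test, where 2.3% of all genes were higher and 5.05% lower, so that the count of members was not above that of all genes. It was -0.916 on the log2 scale for Cdc6 (adjusted p = 0.0298) and 0.642 for Ccna2 (adjusted p = 0.036). Without both libraries that stood apart the values were -0.765 (0.0218) and 0.516 (0.0234). Leaving out CD62L-high GMP replicate 1, or any of 6 other libraries of the fractions compared, left 0 of the 44 genes called by edgeR. The CD62L gates differed between CMPs and GMPs.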

How the results depend on the processing

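Counts of called members in the 12 comparisons were within 1.5 times the reported count in 269 of 370 alternative counts, and no called member changed sign in them; causes of the shifts were not tested. Without both libraries that stood apart the counts were 27 (CD62L-high against CD62L-low CMP), 24 (CD62L-high against CD62L-neg GMP), 14 (CD62L-low against CD62L-neg GMP), 15 (CD62L-high against CD62L-low GMP), 21 (CD62L-neg GMP against CD62L-low CMP), 18 (CD62L-high GMP against CD62L-high CMP), 10 (CD62L-neg GMP against CD62L-high CMP), 9 (CD62L-neg against bulk GMP) and 5 (the difference between GMPs and CMPs). Requiring more than 2-fold of the calls with all libraries left 2 (CD62L-high against CD62L-low CMP, with 10.5% of all genes called), 3 (CD62L-high against CD62L-neg GMP), 1 (CD62L-high against CD62L-low GMP), 11 (bulk GMP against bulk CMP), 1 (CD62L-neg GMP against CD62L-low CMP), 0 (CD62L-high GMP against CD62L-high CMP), 1 (CD62L-neg GMP against CD62L-high CMP), 1 (bulk CMP against its fractions) and 0 (the difference). A fit of only the populations compared gave 20 (CD62L-high against CD62L-low CMP, with 28.3% of all genes called against 17.2% in the main fit), 11 (CD62L-low against CD62L-neg GMP), 2 (CD62L-high against CD62L-low GMP), 9 (bulk GMP against bulk CMP), 11 (CD62L-neg GMP against CD62L-high CMP), 10 (CD62L-neg against bulk GMP) and 2 (bulk CMP against its fractions). Where no share of all genes is given, here or above, a change in a count may reflect how many genes were called at all. CD62L-low against CD62L-neg GMP gave 2 with DESeq2, 2 without the filter on low counts, 1 without the ribosomal RNA gene models and 1 after thinning. DESeq2 called 8 for CD62L-high against CD62L-low GMP, the fit without a filter 4 for CD62L-neg GMP against CD62L-high CMP and 1 for the difference, and thinning left 7 for CD62L-neg GMP against CD62L-low CMP.

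Leaving out each library in turn gave 27 to 35 calls over the 7 populations (33.4% to 41.7% of all genes), 8 to 22 for CD62L-high against CD62L-low CMP (12.1% to 21%), 8 to 23 for CD62L-high against CD62L-neg GMP, 0 to 8 for CD62L-low against CD62L-neg GMP, 1 to 11 for CD62L-high against CD62L-low GMP, 18 to 31 for bulk GMP against bulk CMP, 7 to 17 for CD62L-neg GMP against CD62L-low CMP, 2 to 11 for CD62L-high GMP against CD62L-high CMP, 1 to 6 for CD62L-neg GMP against CD62L-high CMP, 0 to 6 for CD62L-neg against bulk GMP, 5 to 16 for bulk CMP against its fractions and 0 to 2 for the difference. No pairing by replicate number was seen: in 0 of 13 pairs of populations was every same-number correlation over 0.1 (-0.113 to 0.069). Such correlations cannot show whether samples of the same number shared a sort or a mouse. With the replicate block the difference had 1 call, and all other counts were within 1.5 times. Depth limits members of low counts such as Ccne1.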
